A study of Mus musculus with 24 samples.

Results

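The PML nuclear body and Sp100 family was followed here as 7 genes, Pml, Sp100, Sp110, Sp140, Daxx, Csprs and Atrx, taken by gene symbol among the 22911 genes named on the array. They are read by 15 of the 56605 probes, and all 15 probes passed the filter on dim probes, so all 7 genes were among the 14297 tested. The cells were ID8, an established mouse ovarian cancer line grown from surface epithelium, which was treated for 3 h in culture. Untreated cells received the vehicle PBS, and the other 6 groups received recombinant mouse interferon (IFN), either IFN epsilon or IFN beta, each at 3 doses, 10, 100 and 1000 IU/ml. The study asks how IFN epsilon, a type I interferon of the female reproductive tract, acts directly on these tumour cells, with IFN beta beside it. Each group had 3 biological replicates made on separate dates, each the pool of its technical replicates. The arrays of the third date for IFN beta at 10 and 100 IU/ml, which the labels mark as excluded, were left out, so that these 2 groups had 2 samples and every other group 3.

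PML nuclear bodies are small spheres in the cell nucleus built around the protein PML, which recruits partners through attachment of the small modifier SUMO. Sp100 is a permanent resident of these bodies, and Sp110 and Sp140 are its relatives, which share a SAND domain and, in most forms, a chromatin-reading bromodomain. Daxx is a histone chaperone of the bodies that, together with the chromatin remodeller Atrx, places the histone variant H3.3, and PML, Sp100 and Daxx are known as restrictors of DNA viruses and as targets of interferon in many cell types. Csprs is annotated as a component of Sp100-rs, a repeated gene cluster of the mouse, so that its probe may not tell near-identical copies apart.

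In the RefSeq annotation used for gene names, Sp110, Sp140 and Sp100 lie next to each other on chromosome 1 in that order, and the spans of Sp110 and Sp140 overlap. Windows from 250 bases before to 50 bases after an annotated start were at hand for 6 of the 7 genes, 10 windows in all, from RefSeq on GRCm38.p6. The core of the interferon-stimulated response element, a sequence found before many interferon-induced genes, was searched as GAAA, 2 bases of any kind and GAAA again. It was found on either strand in 0 of these 10 windows, against 3.44% of all 32851 windows. The gamma-activated site TTCNNNGAA was also in 0 of the 10, against 8.30% of all windows. The same pair of GAAA spaced by 3 bases of any kind was searched after these windows had been seen. It was present in 2 of the 6 genes, Sp100 and Sp110, against 3.17% of all genes, and in 3 of the 10 windows, against 2.75% of all windows. As it was searched after the windows were seen, these shares are no test of enrichment. The 2 Sp100 windows overlap and hold the same match. The stretches of these 2 genes are shown because they hold the only matches among the members. Sp140, which lies between them, has no match in its window. Capitals mark the match, which reads on the opposite strand as the letters searched. The Sp100 stretch is chr1:85649738-85649987 on the plus strand, the 250 bases before its start, and the match begins at position -47 from that start. The Sp110 stretch is chr1:85598781-85598810 on the minus strand, 30 bases from the annotated start on, with 9 bases before the match.
Sp100: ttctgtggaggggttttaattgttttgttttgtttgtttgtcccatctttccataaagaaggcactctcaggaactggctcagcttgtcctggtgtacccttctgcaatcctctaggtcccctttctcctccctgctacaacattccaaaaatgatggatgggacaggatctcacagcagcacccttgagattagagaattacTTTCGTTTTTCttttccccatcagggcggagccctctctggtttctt
Sp110: tgagatcacTTTCATTTTTCttttcttgaa
These matches describe the letters in the windows, and binding at them was not measured.

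Levels are given as scaled log2 signal, which is the log2 of the processed intensity minus the 75th percentile of that array, so that 0 is the 75th percentile of the array and 1 unit is a doubling. This percentile lay between 643.5 and 1221 intensity units, and the scanner software placed 47.9 to 57% of an array's probes well above background. Fold changes come from limma over all 7 groups and are given in log2 units with their standard error (SE). A gene was called where limma's Benjamini-Hochberg adjusted p over the 14297 genes was under 0.05. Among markers of identity, Krt8, Krt18, Krt19, Wt1 and Msln of the ovarian surface epithelium were well above background on all 22 arrays, as were the matrix genes Col1a1, Col3a1 and Dcn. Pax8 was not detected in 4 of the 7 groups. Of 19 leukocyte markers on the array, 10 to 12 were detected on no array of a given group, the pan-leukocyte marker Ptprc among them, and 6 to 7 were detected on every array of a group. Itgam, Cd3e and Csf1r of that list were well above background on all 22 arrays. The endothelial markers Cdh5, Vwf and Emcn were detected in no group, whereas Kdr was detected on 22 of 22 arrays and Pecam1 on 21 of 22. The part of such cells or signals in the results was not tested. In limma 0 genes of the epithelial, leukocyte and endothelial and fibroblast lists were called in any treatment against untreated cells, with at most 1 gene of a list at an unadjusted p under 0.05. The summed linear level of the leukocyte list was 3.6 to 5.32 in untreated and 3.61 to 5.29 in treated arrays. Less RNA per cell and fewer cells with that RNA cannot be told apart in these bulk samples.

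Pml, Sp100, Sp140, Daxx and Csprs were higher after 3 h of 1000 IU/ml of either interferon, and Atrx and the brightest probe of Sp110 were not called. At IFN epsilon 1000 IU/ml 5 of 7 genes were called higher, where 2.26% of all genes were, and at IFN beta 1000 IU/ml 5 of 7, where 1.6% were. By limma 0 of the 7 were called lower in any comparison, where at most 0.0699% of all genes were (IFN epsilon 1000 IU/ml; 0.00699% at IFN beta 1000 IU/ml and 0.014% from 10 to 1000 IU/ml IFN epsilon), and the unadjusted p was under 0.05 for these 5 genes and no other in both comparisons. The median log2 fold change of the 7 genes was 2.35 at IFN epsilon 1000 IU/ml, against -0.052 over all genes, and 1.98 at IFN beta 1000 IU/ml, against -0.0418. With the 2 excluded arrays entered, which raised the SE of Sp100 from 0.172 to 0.571, 1 gene was called at IFN epsilon and 0 at IFN beta 1000 IU/ml, and a fit of untreated and IFN beta 1000 IU/ml samples alone called 1, Sp100.

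**Figure D1:**
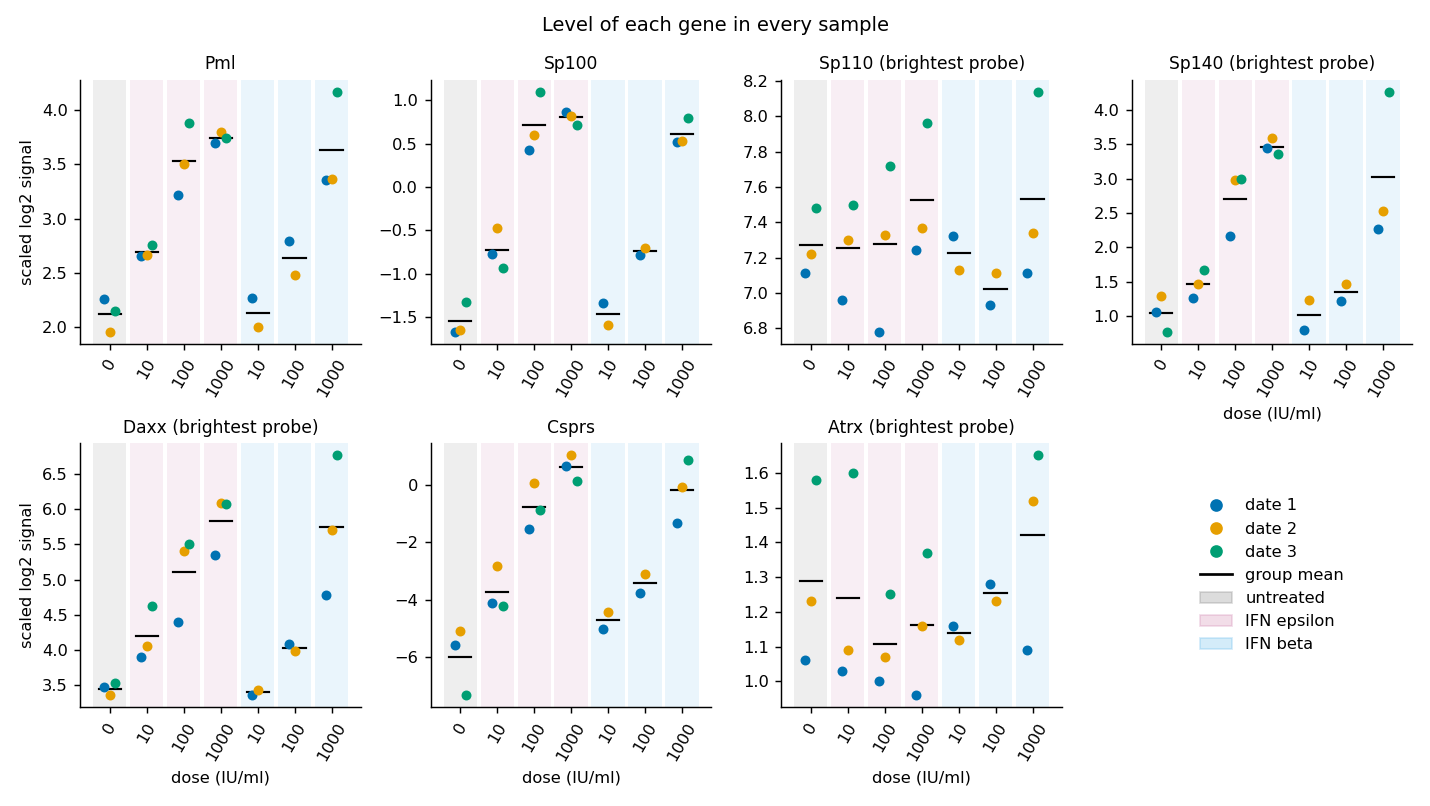
Scaled log2 signal (vertical axis, a scale for each panel) of the probe that stands for each gene, in each of the 19 samples by dose and interferon. Points are samples coloured by date and lines are group means. Pml, Sp100, Sp140, Daxx and Csprs at 100 and 1000 IU/ml IFN epsilon lie above all untreated samples, as do the IFN beta 1000 IU/ml samples.

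Pml encodes the protein that forms the body. Its level in the 3 untreated samples was 2.26, 1.96 and 2.15, in the order of the dates. It was 2.66, 2.67 and 2.76 at 10, 3.22, 3.50 and 3.88 at 100, and 3.7, 3.80 and 3.74 at 1000 IU/ml IFN epsilon. With IFN beta it was 2.27 and 2.00 at 10, 2.79 and 2.48 at 100, and 3.36, 3.37 and 4.17 at 1000 IU/ml. Every IFN epsilon group lay above all untreated samples, whereas the IFN beta 10 IU/ml samples overlapped them. Pml rose 3.09-fold at IFN epsilon 1000 IU/ml (log2 fold change 1.63, SE 0.206, adjusted p = 0.000218) and 2.85-fold at IFN beta 1000 IU/ml (1.51, SE 0.206, adjusted p = 0.000561). Both calls were lost with scaling on the median (1.24, adjusted p = 0.143, for IFN epsilon and 1.36, adjusted p = 0.0902, for IFN beta), which lowered the median log2 fold change of all genes at IFN epsilon 1000 IU/ml from -0.052 to -0.435.

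Sp100 encodes the namesake of the family and was the member measured with the smallest SE. Its untreated levels were -1.67, -1.65 and -1.33. They were -0.77, -0.47 and -0.94 at 10, 0.43, 0.60 and 1.1 at 100, and 0.87, 0.82 and 0.72 at 1000 IU/ml IFN epsilon. With IFN beta they were -1.34 and -1.59 at 10, -0.78 and -0.70 at 100, and 0.52, 0.53 and 0.80 at 1000 IU/ml. The IFN epsilon samples at 100 and 1000 IU/ml shared a range, and the IFN beta samples at 100 IU/ml lay among the IFN epsilon samples at 10 IU/ml. Sp100 rose 5.10-fold at IFN epsilon 1000 IU/ml (2.35, SE 0.172, adjusted p = 1.1e-06) and 4.49-fold at IFN beta 1000 IU/ml (2.17, SE 0.172, adjusted p = 3.18e-06).

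Sp140, a chromatin reader best known from leukocytes, was at 1.06, 1.29 and 0.78 in untreated cells. It was 1.26, 1.47 and 1.67 at 10, 2.16, 2.98 and 2.99 at 100, and 3.44, 3.59 and 3.35 at 1000 IU/ml IFN epsilon. With IFN beta it was 0.80 and 1.24 at 10, 1.23 and 1.47 at 100, and 2.27, 2.53 and 4.26 at 1000 IU/ml. The groups at 10 IU/ml and IFN beta at 100 IU/ml overlapped the untreated samples, and the third date stood above the others at IFN beta 1000 IU/ml. The rise was 5.35-fold at IFN epsilon 1000 IU/ml (2.42, SE 0.392, adjusted p = 0.00206) and 3.94-fold at IFN beta 1000 IU/ml (1.98, SE 0.392, adjusted p = 0.0144). Without the third date of IFN beta 1000 IU/ml its log2 fold change was 1.36 (adjusted p = 0.0106). The IFN beta call was lost without the untreated sample of date 1 (1.99, adjusted p = 0.0584) or of date 3 (1.85, adjusted p = 0.0844), and with scaling on the median (1.83, adjusted p = 0.0824).

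Daxx, the H3.3 chaperone, was at 3.47, 3.36 and 3.53 in untreated cells. It was 3.90, 4.06 and 4.62 at 10, 4.40, 5.41 and 5.50 at 100, and 5.35, 6.09 and 6.07 at 1000 IU/ml IFN epsilon. With IFN beta it was 3.36 and 3.44 at 10, 4.09 and 3.98 at 100, and 4.78, 5.70 and 6.76 at 1000 IU/ml. All groups but IFN beta 10 IU/ml lay above the untreated samples, and the first date was the lowest of each group of 3 treated samples. Daxx rose 5.23-fold at IFN epsilon 1000 IU/ml (2.39, SE 0.404, adjusted p = 0.00298) and 4.91-fold at IFN beta 1000 IU/ml (2.30, SE 0.404, adjusted p = 0.00557).

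Csprs had the largest log2 fold change of the 7 genes, from a level near the background. Its untreated levels were -5.60, -5.10 and -7.34, and 3 of the 6 untreated arrays were well above background, so that its fold changes rest in part on signals the scanner software did not place there. It was -4.13, -2.82 and -4.21 at 10, -1.55, 0.08 and -0.87 at 100, and 0.66, 1.04 and 0.16 at 1000 IU/ml IFN epsilon. With IFN beta it was -5.01 and -4.42 at 10, -3.78 and -3.09 at 100, and -1.32, -0.06 and 0.89 at 1000 IU/ml. No treated group overlapped the untreated samples, and every treated array was well above background. The log2 fold change was 6.63 (SE 0.639, adjusted p = 1.87e-05) at IFN epsilon 1000 IU/ml and 5.85 (SE 0.639, adjusted p = 8.46e-05) at IFN beta 1000 IU/ml. The size depended on the background correction, with 4.12 and 3.37 after normexp and 5.29 and 4.47 in the authors' deposited table, and both stayed called. Without the date 3 untreated sample the values were 5.97 and 5.19.

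Atrx, the remodeller that works with Daxx, was at 1.06, 1.23 and 1.58 in untreated cells on its brightest probe, at 0.96, 1.16 and 1.37 at 1000 IU/ml IFN epsilon and at 1.09, 1.52 and 1.65 at 1000 IU/ml IFN beta. The groups overlapped. Its log2 fold change was -0.13 (95% interval -0.524 to 0.274) at IFN epsilon 1000 IU/ml and 0.13 (-0.268 to 0.53) at IFN beta 1000 IU/ml. Its other 2 probes had 0.04 (SE 0.134, adjusted p = 1) and 0.50 (SE 0.251, adjusted p = 0.816) at IFN epsilon 1000 IU/ml in a fit over all probes, and they correlated with the brightest at r = -0.353 and -0.27 over 19 samples that share arrays and dates.

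Sp110, which has been proposed as a mouse gene of resistance to intracellular bacteria, gave answers that depended on the probe. Its 3 probes carry the same RefSeq transcript in the array design. The brightest, A_55_P2066792, was at 7.11, 7.22 and 7.48 in untreated cells, at 7.24, 7.37 and 7.96 at 1000 IU/ml IFN epsilon and at 7.11, 7.34 and 8.14 at 1000 IU/ml IFN beta, and these groups overlapped. Its log2 fold changes were 0.25 (SE 0.281) and 0.26 (SE 0.281), with an adjusted p of 1 in both. The probe A_52_P512201 was at 0.26, 0.45 and 1.16 in untreated cells. It was at 2.74, 3.54 and 4.16 at 100 and at 3.92, 4.07 and 4.39 at 1000 IU/ml IFN epsilon, and at 0.75 and 1.29 at 100 and 2.91, 3.32 and 4.83 at 1000 IU/ml IFN beta. The probe A_55_P2037235 was at -2.63, -2.41 and -2.06 in untreated cells. It was at 0.23, 0.55 and 0.97 at 100 and at 1.43, 1.38 and 1.17 at 1000 IU/ml IFN epsilon, and at -2.22 and -1.94 at 100 and 0.15, 0.32 and 1.79 at 1000 IU/ml IFN beta. On both of these probes every sample at 100 or 1000 IU/ml IFN epsilon and at 1000 IU/ml IFN beta lay above all untreated samples.

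**Figure D2:**
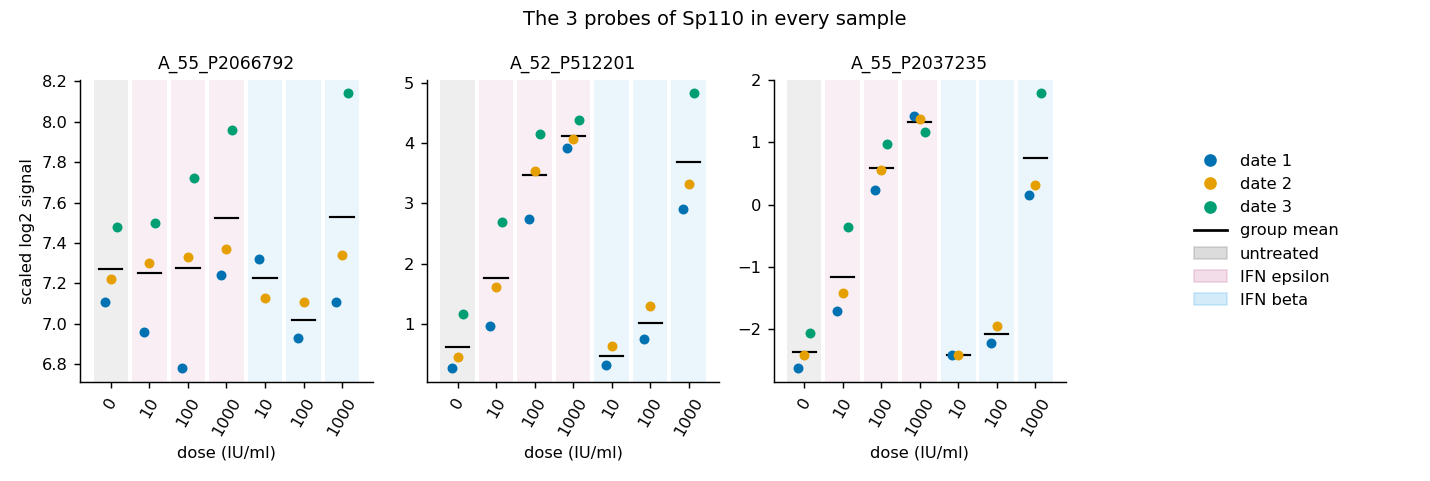
Scaled log2 signal (vertical axis, a scale for each panel) of the 3 Sp110 probes in the 19 samples, by dose and interferon, with points coloured by date and lines at group means. A_55_P2066792 stays between 6.78 and 8.14 across all groups, whereas the other 2 probes climb with the dose of IFN epsilon and at 1000 IU/ml IFN beta.

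A limma fit over all 31021 probes that passed the filter, added after the disagreement was seen, gives each probe its own test. In it A_52_P512201 rose by 3.50 (SE 0.507, adjusted p = 0.000851) at IFN epsilon 1000 IU/ml and by 3.07 (SE 0.507, adjusted p = 0.00363) at IFN beta 1000 IU/ml on the log2 scale. A_55_P2037235 rose by 3.7 (SE 0.393, adjusted p = 4.65e-05) and by 3.13 (SE 0.393, adjusted p = 0.000307). Of the 15 probes of the 7 genes, 11 were called higher at IFN epsilon 1000 IU/ml, where 1.81% of probes were, and 11 at IFN beta 1000 IU/ml, where 1.3% were. Those not called were the brightest Sp110 probe and the 3 Atrx probes. The 3 probes of Sp140 rose together, by 2.42 to 3.46 at IFN epsilon 1000 IU/ml, as did the 3 of Daxx, by 2.39 to 2.56. Over the 19 samples the other probes correlated with the brightest at r = 0.968 and 0.989 for Sp140, 0.995 and 0.986 for Daxx, and 0.619 and 0.538 for Sp110.

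**Figure D3:**
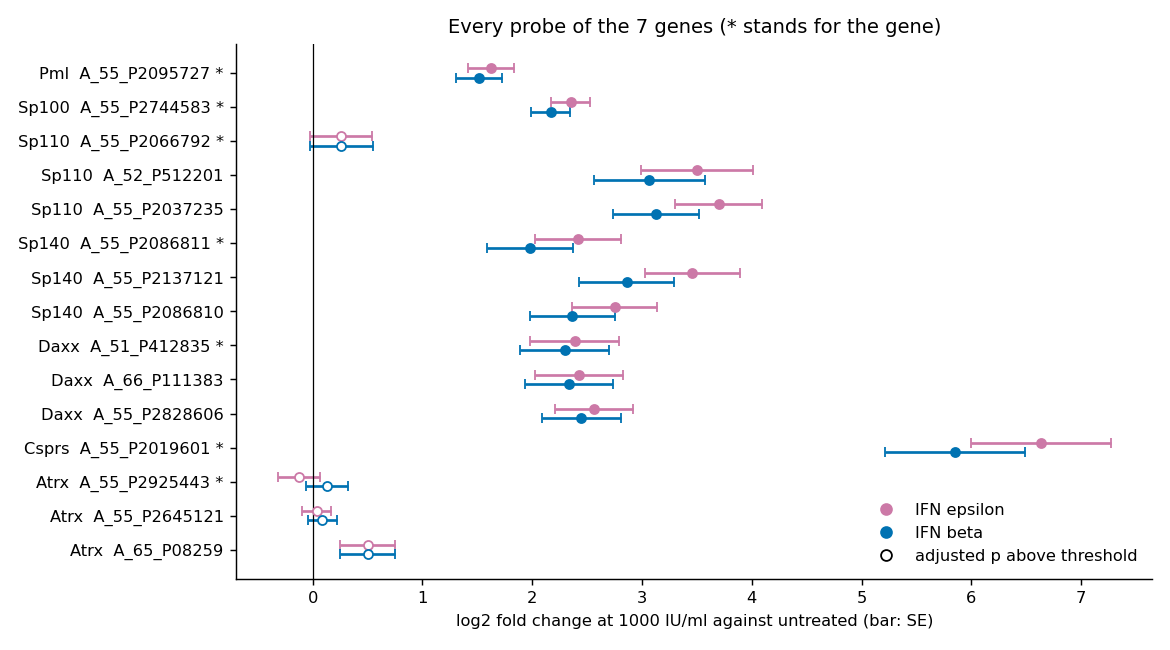
Log2 fold change at 1000 IU/ml against untreated cells (horizontal axis, bars are SE) for each of the 15 probes, from the fit over all probes, with filled points where the adjusted p is under 0.05. The 11 filled pairs of points lie between 1.51 and 6.63, and the brightest Sp110 probe and the 3 Atrx probes are open.

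At 10 IU/ml neither interferon gave a called gene, and at 100 IU/ml IFN epsilon, with 3 samples, gave 3 and IFN beta, with 2 samples, gave 0. At IFN epsilon 100 IU/ml 3 of 7 genes were called higher, where 1.06% of all genes were. These were Pml (1.41, SE 0.206, adjusted p = 0.00137; lost with scaling on the median, adjusted p = 0.1), Sp100 (2.26, SE 0.172, adjusted p = 2.94e-06) and Csprs (5.23, SE 0.639, adjusted p = 0.000319). Sp140 (1.67, SE 0.392, adjusted p = 0.0697) and Daxx (1.65, SE 0.404, adjusted p = 0.0906) missed the threshold. With the date as a block all 5 were called, where 1.5% of genes were, Sp140 with an adjusted p of 0.0346 and Daxx with 0.00922. Both were also called without the date 1 sample of IFN epsilon 100 IU/ml (adjusted p = 0.0458 and 0.0332). In the fit over all probes 8 of the 15 probes were called there, where 0.916% of probes were, among them 2 of 3 for Sp110 (2.86 and 2.95), 2 of 3 for Sp140 (2.40 and 2.07) and 1 of 3 for Daxx (1.80).

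At IFN beta 100 IU/ml 0 of 7 genes were called by limma, where 0.112% of all genes were, and 3 had an unadjusted p under 0.05. Their log2 fold changes were 0.51 (SE 0.231) for Pml, 0.81 (SE 0.192) for Sp100 and 2.58 (SE 0.715) for Csprs. Sp140 was at 0.31 (SE 0.438) and Daxx at 0.58 (SE 0.452). At IFN epsilon 10 IU/ml 0 of 7 genes were called, where 0.203% were, and the same 3 genes had an unadjusted p under 0.05. The values there were 0.58 (SE 0.206) for Pml, 0.83 (SE 0.172, adjusted p = 0.0993) for Sp100, 2.30 (SE 0.639) for Csprs, 0.43 (SE 0.392) for Sp140 and 0.74 (SE 0.404) for Daxx. At IFN beta 10 IU/ml 0 of 7 were called, where 0% of all genes were, and 0 had an unadjusted p under 0.05. The comparisons with untreated cells share those samples.

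**Figure D4:**
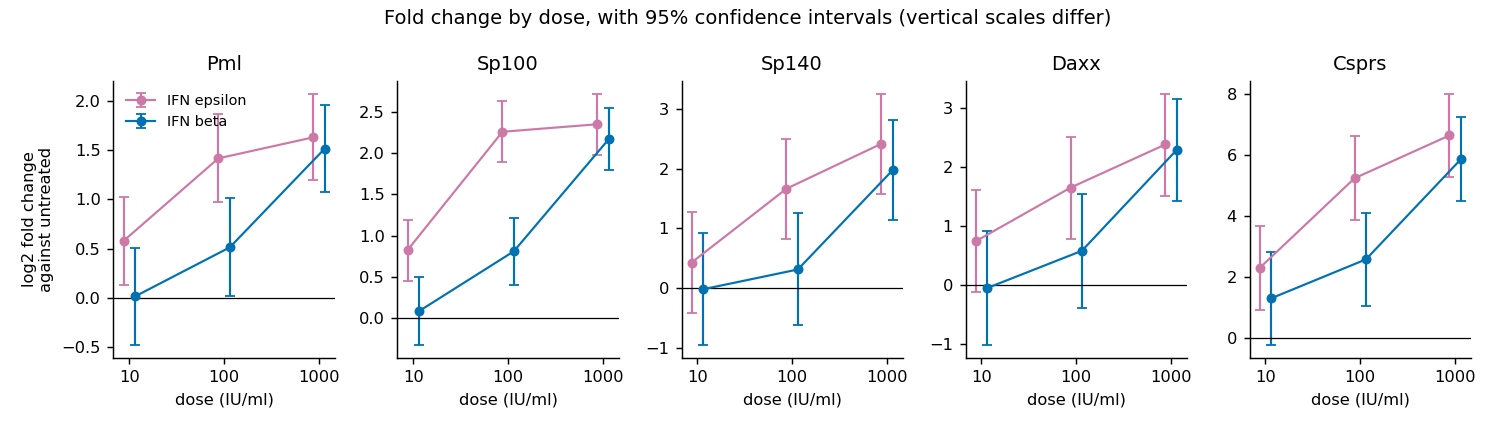
Log2 fold change against untreated cells (vertical axis, a scale for each panel) by dose in IU/ml (horizontal axis, equal steps) for the 5 genes called at 1000 IU/ml, with limma's 95% intervals. At 100 IU/ml the IFN epsilon values lie above those of IFN beta in every panel, by 0.90 for Pml to 2.65 for Csprs, where the intervals of the 2 interferons overlap for 4 of the 5 genes and not for Sp100. At 1000 IU/ml they overlap for all 5.

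Set against its own value at 1000 IU/ml, Sp100 had reached 96.1% of its log2 fold change at 100 IU/ml IFN epsilon and 37.4% at 100 IU/ml IFN beta. For Pml the shares were 86.9% and 33.8%, for Csprs 78.9% and 44%, for Daxx 69.3% and 25.4%, and for Sp140 68.8% and 15.7%. These shares describe the group means and carry no test. For IFN beta they set dates 1 and 2 at 100 IU/ml against all 3 dates at 1000 IU/ml, whereas IFN epsilon has 3 dates at both doses. Date 3 had the largest rise over its untreated sample at IFN beta 1000 IU/ml for Pml, Sp140, Daxx and Csprs, not for Sp100. For Daxx the rises on the 3 dates were 1.31, 2.34 and 3.23. At 100 IU/ml IFN beta the Daxx rises on dates 1 and 2 were 0.62 and 0.62. With IFN epsilon they were 0.93 and 2.05 at 100 IU/ml and 1.88 and 2.73 at 1000 IU/ml on these dates. The part of unlike dates in the contrast between the interferons was not tested.

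IFN epsilon against IFN beta at the same dose was tested directly. At 100 IU/ml 1 of 7 genes, Sp100, was called higher with IFN epsilon, where 0.105% of all genes were. Its difference was 1.45 (SE 0.192, adjusted p = 0.00722), with 1.21 on date 1 and 1.30 on date 2, the 2 dates that both groups had. Differences of 0.90 (SE 0.231, adjusted p = 0.275) for Pml, 1.36 (SE 0.438, adjusted p = 0.805) for Sp140, 1.07 (SE 0.452, adjusted p = 0.999) for Daxx and 2.65 (SE 0.715, adjusted p = 0.368) for Csprs missed the threshold. Together with Sp100, 5 of the 7 genes had an unadjusted p under 0.05 in limma at this dose. In the fit over all probes, where 0.0999% were called, the Sp110 probe A_55_P2037235 differed by 2.66 (SE 0.439, adjusted p = 0.026), with 2.45 on date 1 and 2.49 on date 2, and A_52_P512201 by 2.46 (SE 0.567, adjusted p = 0.182). The Sp100 call was lost without the date 1 sample of IFN beta 100 IU/ml (1.41, adjusted p = 0.176) and without the date 2 sample of IFN epsilon 100 IU/ml (1.5, adjusted p = 0.0557). It was also lost with scaling on the median (adjusted p = 0.249) and in a fit of these 2 groups alone (adjusted p = 0.319).

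At 10 IU/ml 0 of 7 genes were called by limma between the interferons, where 0.0979% were, and Pml and Sp100 had an unadjusted p under 0.05. At 1000 IU/ml 0 of 7 were called, where 0% of all genes were, and 0 had an unadjusted p under 0.05. The differences at 1000 IU/ml, with their 95% intervals, were 0.12 (-0.327 to 0.557) for Pml, 0.18 (-0.187 to 0.55) for Sp100, 0.44 (-0.398 to 1.28) for Sp140, 0.09 (-0.776 to 0.957) for Daxx and 0.78 (-0.589 to 2.15) for Csprs. The intervals allow a difference of either sign. In all 5 genes IFN epsilon was the higher on dates 1 and 2 and IFN beta on date 3, as for Csprs with 1.98, 1.09 and -0.73.

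The dose steps gave few calls. From 10 to 100 IU/ml IFN epsilon only Sp100 of the 7 was called (1.43, SE 0.172, adjusted p = 0.0111), where 0.0699% of genes were. Pml, Sp140, Daxx and Csprs also had an unadjusted p under 0.05 in limma in this step. With the date as a block Csprs was called too (2.94, adjusted p = 0.0422), where 0.385% were. That Sp100 call was lost without the date 1 or date 3 sample of IFN epsilon 10 IU/ml (adjusted p = 0.11 and 0.0628) and without the date 2 sample of IFN epsilon 100 IU/ml (0.0547). From 100 to 1000 IU/ml IFN epsilon 0 of 7 genes were called by limma, where 0% were, and Csprs alone had an unadjusted p under 0.05. From 10 to 1000 IU/ml IFN epsilon 4 of 7 were called, where 1.42% were: Pml (1.05, adjusted p = 0.0184), Sp100 (1.52, adjusted p = 0.000636), Sp140 (1.99, adjusted p = 0.0184) and Csprs (4.34, adjusted p = 0.00331). Daxx (1.64, adjusted p = 0.0707) was called with the date as a block (adjusted p = 0.00668), where 3.45% of genes were. Leaving out any 1 of these 6 samples left 2 or 3 genes called.

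From 10 to 100 IU/ml IFN beta 0 of 7 genes were called by limma, where 0% were, and Sp100 had an unadjusted p under 0.05. From 100 to 1000 IU/ml IFN beta Sp100 was called (1.36, SE 0.192, adjusted p = 0.00686), where 0.504% of genes were, and with the date as a block Csprs as well (3.41, adjusted p = 0.022), where 0.888% were. Without the block Pml, Sp140, Daxx and Csprs also had an unadjusted p under 0.05 in limma in this step. Without the date 1 sample of IFN beta 100 IU/ml 0 genes were called there, and without the date 1 sample of IFN beta 1000 IU/ml 5 were. From 10 to 1000 IU/ml IFN beta 5 of 7 genes were called, where 1.14% were, with Sp100 at 2.08, Pml at 1.5, Sp140 at 2.00, Daxx at 2.35 and Csprs at 4.55. Without the date 1 or the date 2 sample of IFN beta 10 IU/ml 2 genes were called, and with the 2 excluded arrays entered 0 were.

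Of 39 further PML body partners and SUMO pathway genes, all tested, 1 was called higher and 0 lower at IFN epsilon 100 and 1000 IU/ml and at IFN beta 1000 IU/ml, where 1.06%, 2.26% and 1.6% of all genes were called higher. A single gene of 39 is near those shares. In each case it was Isg20, an interferon-induced exonuclease found in PML bodies. Isg20 was at 3.22, 2.92 and 2.67 in untreated cells, at 5.48, 5.42 and 5.14 at IFN epsilon 1000 IU/ml and at 4.57, 4.55 and 5.77 at IFN beta 1000 IU/ml, with no overlap. It rose by 2.41 (SE 0.263, adjusted p = 5.36e-05) and 2.03 (SE 0.263, adjusted p = 0.000356) there, and by 1.80 (SE 0.263, adjusted p = 0.00137) at IFN epsilon 100 IU/ml. The median log2 fold change of the 39 genes at IFN epsilon 1000 IU/ml was -0.0913, against -0.052 over all genes.

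Of 16 genes for the deposition of histone H3.3, 0 were called by limma in any treatment against untreated cells, with at most 1 at an unadjusted p under 0.05. At most 2.26% of all genes were called higher in these comparisons, so that 0 of 16 is near the background, as is 0 of the 6 genes that follow. With the date as a block Dek, a histone-binding protein, was called at IFN epsilon 1000 IU/ml (0.32, adjusted p = 0.0338). The share of all genes called with the block in that comparison is not given here, so this call and that of Trim33 below have no background beside them. Of 6 tested relatives of Sp100 with a SAND domain or bromodomain, 0 were called by limma, with at most 1 at an unadjusted p under 0.05. With the block Trim33 was called lower at IFN epsilon 1000 IU/ml (-0.32, adjusted p = 0.0433). Of 8 genes of interferon signalling, which serve as a reference, 4, 7 and 7 were called higher at 10, 100 and 1000 IU/ml IFN epsilon, where 0.203%, 1.06% and 2.26% of all genes were. With IFN beta 0, 1 and 7 were called, where 0%, 0.112% and 1.6% of all genes were. With the block these counts were 7, 7 and 7, and 0, 5 and 7. The share of all genes called higher with the block was 1.5% at IFN epsilon 100 IU/ml and is not given here for the other treatments. The largest rises at 1000 IU/ml were those of Ifit1, an RNA-binding antiviral protein (7.10 with IFN epsilon and 6.83 with IFN beta), and Usp18, which curbs type I interferon signalling (5.63 and 5.40), followed by the peptide transporter subunit Tap1 for IFN epsilon (3.95) and Isg15 for IFN beta. At 100 IU/ml Usp18 was the gene called with IFN beta (3.16, adjusted p = 0.0172). Isg15, a ubiquitin-like modifier, rose by 3.86 and 3.74 (SE 0.394 for each, adjusted p = 3.07e-05 and 5.89e-05). Irf1, a transcription factor that acts on interferon targets, had 0.97 (SE 0.363, adjusted p = 0.362) and 1.1 (SE 0.363, adjusted p = 0.323). Of 12 housekeeping genes 0 were called by limma against untreated cells, and 0 had an unadjusted p under 0.05.

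Across the 19 samples, which share arrays, dates and treatments, the 5 genes called at 1000 IU/ml correlated with each other at r = 0.898 to 0.967, and Atrx with them at -0.047 to 0.308. Sp110 on its brightest probe correlated with these 5 at 0.376 to 0.646 and with Atrx at 0.656. The 5 genes were picked by their rise over these same samples, so their correlation is no separate result. Among 14265 genes, those most like Pml over these samples were Herc6 (r = 0.989), Zbp1 (0.986) and Tap1 (0.982). For Sp100 they were Gbp3 (0.981), Phf11a and Ifi204 (0.98 for both), and for Sp140 they were Xdh (0.993), Csta2 (0.988) and Gbp4 (0.984). For Daxx they were Tent5a (0.993), Znfx1 (0.992) and Trex1 (0.987), and for Csprs Oas1c (0.984), Nlrc5 (0.983) and Psmb9 (0.982).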

How the data were processed

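RNA was measured on 24 single-colour Agilent arrays on 3 slides. Their deposited signal is an intensity that the authors' scanner software, Agilent Feature Extraction 11.0.1.1, background-subtracted within each array, per the file headers. The deposited log2 table, for which R 3.6.1 and limma 3.42.0 are named in the submitters' processing notes, was an alternative. Each array was scaled by subtracting the 75th percentile of its log2 intensity. Control spots and 79 to 280 outlier spots per array were left out, and 0 spots were saturated. Probes were kept if well above background in 2 or more samples of any group, and a gene was read from its brightest kept probe. Genes were named through RefSeq accessions (32994 of 56605 probes). The 2 arrays of each untreated sample were averaged.

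The 7 groups were fitted together with limma 3.58.1 in R 4.3.3 (lmFit, eBayes, 12 residual degrees of freedom), without a block, over 15 comparisons. Each replicate number is 1 date of the experiment, per the series' design. Deviations from group means correlated at a median of 0.48 over the 52 pairs of samples of 1 date and at -0.215 over the 102 pairs of different dates, so a fit with the date as replicate block was run as an alternative. Other alternatives were the scaling, normexp on median signals (the files used have no mean signal), the filter, the slide, the 2 excluded arrays, the samples fitted, the probe and each replicate left out. The fit was tested on simulated data in which samples varied independently, with no effect of the date. That test therefore does not cover the correlation within a date seen here.

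The members and lists were chosen with earlier results of these data known. Named were the 7 members, the called genes with the 3 largest changes of each list per treatment, Irf1, Isg15 and the 3 genes most like each called member. Dek and Trim33 were named after their values were seen, and 1 gene of the reference list is not reported here. A comparison of the members' proteins was not made here. Figures were drawn with matplotlib.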

Additional observations from a re-analysis of the deposited data

Results flagged for a closer look

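Sp100 differed between the interferons at 100 IU/ml by 1.45 on the log2 scale (limma, adjusted p = 0.00722), higher with IFN epsilon on both dates that the groups share. The Sp110 probe A_55_P2037235 differed by 2.66 there (adjusted p = 0.026), on both dates too. The Sp100 call was lost in the alternatives given above, and with all 24 arrays its difference was 0.77 and was not called. On the excluded array of IFN beta 100 IU/ml the Sp110 probe was at 1.63, above the IFN epsilon 100 IU/ml samples (0.23 to 0.97).

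In 2 cases, on the probe that stands for the gene, every sample of one interferon lay above the untreated sample of its date and every sample of the other below it. This pattern of signs was not tested. These are 2 of 21 pairs of a member and a dose, and the share of all genes with this pattern, in either direction, was 2.4% at 10, 3.51% at 100 and 0.958% at 1000 IU/ml. At 10 IU/ml Sp140 was higher on 3 dates with IFN epsilon and lower on 2 with IFN beta, with mean date differences 0.585 apart, whereas limma's difference of 0.45 had an adjusted p of 1. At 1000 IU/ml Atrx was lower on 3 dates with IFN epsilon and higher on 3 with IFN beta, with means -0.253 apart, and limma's difference of -0.26 had an adjusted p of 1. The other 2 probes of each gene did not share these directions in their group means. Sp140 at IFN beta 10 IU/ml, over 2 dates, was above untreated over 3 dates (-2.194 against -2.655 and -2.546 against -2.743). Atrx at IFN epsilon 1000 IU/ml was above untreated (0.097 against 0.060 and -2.932 against -3.434).

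The 2 arrays that the labels mark as excluded were read on their own. On the array of IFN beta 100 IU/ml, date 3, Pml was at 4.15, Sp100 at 1.30, Sp110 at 8.14 on its brightest probe, Sp140 at 4.04, Daxx at 6.53 and Csprs at 0.72. All 6 were above every untreated array and above both other samples of that dose. On the array of IFN beta 10 IU/ml, date 3, Pml was at 3.90, Sp100 at 1.13, Sp110 at 7.99, Sp140 at 3.48, Daxx at 6.05 and Csprs at -0.05, again above every untreated array and both other samples of that dose. On both arrays Pml, Sp110 on its brightest probe, Sp140, Daxx and Csprs lay within the range of the 3 IFN beta 1000 IU/ml samples, and Sp100 was above it (0.52 to 0.80). The Sp110 probes A_52_P512201 and A_55_P2037235 were at 4.88 and 1.63 on the 100 IU/ml array and at 4.58 and 1.09 on the 10 IU/ml array. These values too were above every untreated array and both other samples of that dose. Atrx, at 1.27 and 1.31, was not above the highest untreated array (1.76).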

How the results depend on the processing

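The limits are few samples, groups of 2 for IFN beta at 10 and 100 IU/ml, and dim probes. The median 95% interval of a gene, not adjusted for the number of genes, was 0.45 to either side for 3 against 3 samples and 0.503 for 2 against 3 (log2). Smaller differences were mostly not detectable, and larger ones could be missed, as calls used limma's p adjusted over 14297 genes. Sp140 at IFN epsilon 100 IU/ml (1.67, adjusted p = 0.0697) and Csprs between the interferons at 100 IU/ml (2.65, adjusted p = 0.368) were not called. No called value changed sign in any alternative run, and the cause of the changes below was not tested.

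Counts of called genes of 7 that changed by over 1.5 times were the following. With the replicate block, which pairs samples of 1 date, there were 5 at IFN epsilon 100 IU/ml, 2 from 10 to 100 IU/ml IFN epsilon and 2 from 100 to 1000 IU/ml IFN beta. From 10 to 1000 IU/ml IFN epsilon it added Daxx, and it changed no other call of a member. Quantile normalization gave 5 at IFN epsilon 100 IU/ml and 2 from 100 to 1000 IU/ml IFN beta, and the deposited table gave 5 and 3. Normexp gave 2 for that IFN beta step. The mean over probes gave 6 at IFN epsilon 100 IU/ml. The most variable probe of each gene, chosen after seeing the data, gave 5 there, 2 between the interferons at 100 IU/ml and 2 for the IFN beta step. Median scaling gave 3 at IFN beta 1000 IU/ml, 3 from 10 to 1000 IU/ml IFN beta, 1 from 10 to 1000 IU/ml IFN epsilon, and 0 from 10 to 100 IU/ml IFN epsilon, from 100 to 1000 IU/ml IFN beta and between the interferons at 100 IU/ml. Fits of only the groups compared gave 1 at IFN beta 1000 IU/ml and 0 in those last 3 comparisons and from 10 to 1000 IU/ml IFN beta. With all 24 arrays 1 was called at IFN epsilon 1000 IU/ml and 0 in every other comparison that had calls.

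Single calls changed within smaller changes of a count. Normexp and the 75th percentile over probes bright on every array added Sp140 at IFN epsilon 100 IU/ml. The mean over probes and the most variable probe added Sp110 at 1000 IU/ml of either interferon against untreated cells and against 10 IU/ml. Both of these, quantile normalization, normexp, the deposited table and the 75th percentile over bright probes added Daxx from 10 to 1000 IU/ml IFN epsilon. No filter lost Sp140 from 10 to 1000 IU/ml IFN beta, and median scaling lost Pml at IFN epsilon 100 and 1000 IU/ml.

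Leaving out each replicate in turn gave 3 to 5 called at IFN epsilon 100 IU/ml, 5 in each fit at IFN epsilon 1000 IU/ml, 4 to 5 at IFN beta 1000 IU/ml, 0 to 1 between the interferons at 100 IU/ml, 0 to 1 from 10 to 100 and 2 to 3 from 10 to 1000 IU/ml IFN epsilon, and 0 to 5 from 100 to 1000 and 2 to 5 from 10 to 1000 IU/ml IFN beta. The other comparisons had 0 in each. Where a group was left with 1 sample, that sample was assumed to vary like the others.

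Values that were not called and changed sign were the following. Sp110 on its brightest probe (0.00895 at IFN epsilon 100 IU/ml) was -0.0137 with median scaling, -0.0123 with normexp, -0.0137 with the slide as a term and -0.21 to 0.256 without 1 replicate. With median scaling it was -0.128 at IFN epsilon 1000 IU/ml and -0.138 from 10 to 1000 IU/ml. Between the interferons at 100 IU/ml it was -0.114 with all 24 arrays. At IFN beta 1000 IU/ml leave-one-out gave -0.0425 to 0.473. Atrx at IFN epsilon 1000 IU/ml was 0.138 for the mean over its probes, 0.502 for its most variable probe and -0.24 to 0.0203 without 1 replicate. At IFN beta 1000 IU/ml Atrx was -0.0717 in the deposited table, -0.0171 with median scaling and -0.0706 with normexp. Between the interferons at 1000 IU/ml median scaling gave -0.12 for Pml, -0.0531 for Sp100 and -0.144 for Daxx, and leave-one-out gave -0.0219 to 0.382 for Pml and -0.394 to 0.598 for Daxx. A further 44 uncalled values, such as the members at IFN beta 10 IU/ml, were called in none of their 803 alternatives, and 97 of these had the opposite sign.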
